A study of Mus musculus with 20 samples.

Results

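The interferon-response gene families were taken as 56 of the 27962 gene names on a mouse oligonucleotide array. They were chosen by name alone: names that begin with Ifi, Irf, Oas, Gbp or Isg and go on with a number (or with t for Ifi, l for Oas), and Mx1, Mx2, Usp18, Rsad2, Ddx58, Igtp, Iigp1 and Bst2. A further name sought, Xaf1, was not found among the gene names used here. The members had 85 probes, and for each member the probe with the highest mean over all arrays was used. Of the 56 members, 53 were tested. Gbp1, Oas1d and Oas1h were not, since no group had their probes well above background on all of its arrays.

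The study asked how the uterus answers the estrogen mimics BPA (bisphenol A, used in plastics) and HPTE (the active metabolite of the pesticide methoxychlor), and how these answers compare with that to estradiol (E2). Each of 20 arrays held Cy3-labelled RNA (500 ng) of the uterus of 1 mouse. All mice were ovariectomized C57bl6/J females of 10 weeks or more, rested for 10 to 14 days, so that every group, controls included, lacked ovaries. They were injected once, under the skin, with 100 µl of sesame oil as vehicle (3 arrays), or with 250 ng E2, 750 µg BPA or 750 µg HPTE in it.

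Uteri were collected 2 hr or 24 hr later, with 3 arrays in each treated group except E2 at 24 hr, which had 2. The 3 vehicle arrays, named as 24 hr samples, served as the control of both times, so every comparison with vehicle shares them. Values below are log2 processed intensities relative to the 75th percentile of each array and are called levels. They show how a probe changes between arrays and cannot be set against the level of another probe. A difference between groups is on the log2 scale, is given ± its standard error, and was called when its adjusted p (limma, Benjamini-Hochberg over 32460 probes) was under 0.05.

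Interferons are cytokines that cells release on sensing foreign nucleic acid. Their receptors signal through Jak kinases and Stat proteins, and Stat complexes with Irf9 bind a promoter element, the ISRE, to raise a shared set of antiviral genes. In the uterus these genes are best known from early pregnancy, when signals of the embryo raise them in several mammals, and interferon and estrogen signals are both known to act on uterine epithelium and stroma. Among the members, Irf proteins are transcription factors, Ifit proteins bind foreign RNA, Oas enzymes sense double-stranded RNA, Gbp proteins, Igtp and Iigp1 are GTPases that attack microbes inside cells, and Ifitm proteins and Bst2 act at membranes to block virus entry or release. Isg15 is a ubiquitin-like tag that Usp18 removes. A few members share only the name pattern: Irf2bp1 and Irf2bp2 are corepressors that bind Irf2, Ifitm5 is a bone protein, Isg20l2 is a nuclease that processes ribosomal RNA, and Isg20l1 is an older name of Aen, a nuclease raised by p53.

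The promoters of 6 members that carry the results below are shown, to let a reader see the ISRE. They were picked for their results. Its core was in 20 of the 51 member promoters searched, so it is not shared by all of them. Each line is the 250 bases before a gene's start (RefSeq, build GRCm38.p6, 5′ to 3′ on the gene's strand), in lower case, with each match to the ISRE core GAAANNGAAA, on either strand, in capitals. Ifit3 lies at chr19:34583279-34583528 on the plus strand, Rsad2 at chr12:26456453-26456702 on the minus strand, Gbp5 at chr3:142496684-142496933 on the plus strand, Isg15 at chr4:156200819-156201068 on the minus strand, Oas1a at chr5:120907526-120907775 on the minus strand and Oasl1 at chr5:114922990-114923239 on the plus strand. The first 3 genes were low at 2 hr and the last 3 were high at 24 hr after E2.
Ifit3: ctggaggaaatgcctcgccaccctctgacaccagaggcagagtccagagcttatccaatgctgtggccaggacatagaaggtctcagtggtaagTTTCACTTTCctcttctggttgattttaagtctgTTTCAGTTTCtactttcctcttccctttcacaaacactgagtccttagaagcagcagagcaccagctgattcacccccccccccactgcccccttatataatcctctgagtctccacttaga
Rsad2: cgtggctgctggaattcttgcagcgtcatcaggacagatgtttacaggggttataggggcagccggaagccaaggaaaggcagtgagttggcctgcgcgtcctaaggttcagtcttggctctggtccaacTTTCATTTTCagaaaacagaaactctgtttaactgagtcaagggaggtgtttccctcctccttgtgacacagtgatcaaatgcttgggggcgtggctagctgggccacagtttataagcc
Gbp5: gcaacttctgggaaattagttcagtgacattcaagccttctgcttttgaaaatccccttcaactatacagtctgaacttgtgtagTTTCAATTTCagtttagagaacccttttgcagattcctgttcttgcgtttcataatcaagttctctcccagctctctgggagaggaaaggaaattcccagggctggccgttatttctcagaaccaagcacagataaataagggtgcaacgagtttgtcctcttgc
Isg15: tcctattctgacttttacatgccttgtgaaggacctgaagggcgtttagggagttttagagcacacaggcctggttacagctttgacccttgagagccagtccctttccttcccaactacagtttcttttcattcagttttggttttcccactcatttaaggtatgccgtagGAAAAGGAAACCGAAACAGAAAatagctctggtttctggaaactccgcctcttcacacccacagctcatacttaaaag
Oas1a: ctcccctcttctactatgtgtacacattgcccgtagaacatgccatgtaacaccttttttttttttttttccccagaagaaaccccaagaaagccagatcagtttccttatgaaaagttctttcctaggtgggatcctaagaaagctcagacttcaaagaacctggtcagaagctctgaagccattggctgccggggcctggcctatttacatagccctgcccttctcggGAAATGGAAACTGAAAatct
Oasl1: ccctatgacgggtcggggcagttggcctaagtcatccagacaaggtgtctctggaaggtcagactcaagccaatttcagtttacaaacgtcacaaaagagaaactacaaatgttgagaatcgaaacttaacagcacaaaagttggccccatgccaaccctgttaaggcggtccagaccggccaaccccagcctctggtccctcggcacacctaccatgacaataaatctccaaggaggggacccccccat

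The Ifit3 matches start 156 and 122 bases before the gene's start, the Rsad2 match 120 and the Gbp5 match 165. In Isg15, 3 overlapping matches start 78, 72 and 66 bases before it, and in Oas1a 2 overlapping matches start 20 and 14 bases before it. The Oasl1 promoter held no match in this window, although its gene had the largest difference among members above background in both groups. Over the 300 bases that end 50 bases after the start, the table held 51 promoters of 44 members, and 39.2% of them held the ISRE core, against 3.44% of 32851 promoters of all genes. The GAS core (TTCNNNGAA), which Stat pairs bind, was in 27.5% of member promoters and 8.3% of all. An estrogen response element (GGTCANNNTGACC) was in 0 of the 51 and in 0.07% of all. With so low a share over all, 0 of 51 cannot show that the members lack this element, and only exact matches were sought. A match is a description of the letters, not a binding site.

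Transcripts of other tissues and cell types varied between groups and between arrays of 1 group. The defining transcripts of uterine epithelium (5 of 5, Krt8 among them) and stroma (5 of 5, Pgr and Esr1 among them) were well above background on all 20 arrays. Pancreas enzyme transcripts (6 probes) had a summed level, relative to the 75th percentile, of 1621 and 101.6 in E2 2 hr replicates 2 and 3 and of 2.81 and 7.32 at 24 hr after E2, against 0.22 to 0.52 on the other 16 arrays. Sperm-cell transcripts (7 probes) summed to 101.6, 33.3 and 30.8 in the vehicle arrays and to 0.31 to 12.5 in the treated ones, called lower for 7 of 7 genes in each of the 6 comparisons with vehicle, and their part in the results was not tested. B cell transcripts (5 of 5 well above background on all vehicle arrays) summed to 31, 16.2 and 4.54 in the BPA 2 hr arrays, against 2.95 to 4.23 in vehicle, and macrophage and dendritic cell transcripts (6 of 6, called macrophage transcripts below) to 104.2, 27.3 and 17.7, against 13.9 to 17.8. Counts of members called and calls of named genes at 2 hr with E2 or BPA are therefore also given without these arrays. In whole-organ RNA, fewer cells of a type and less RNA per cell cannot be told apart.

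**Figure D1:**
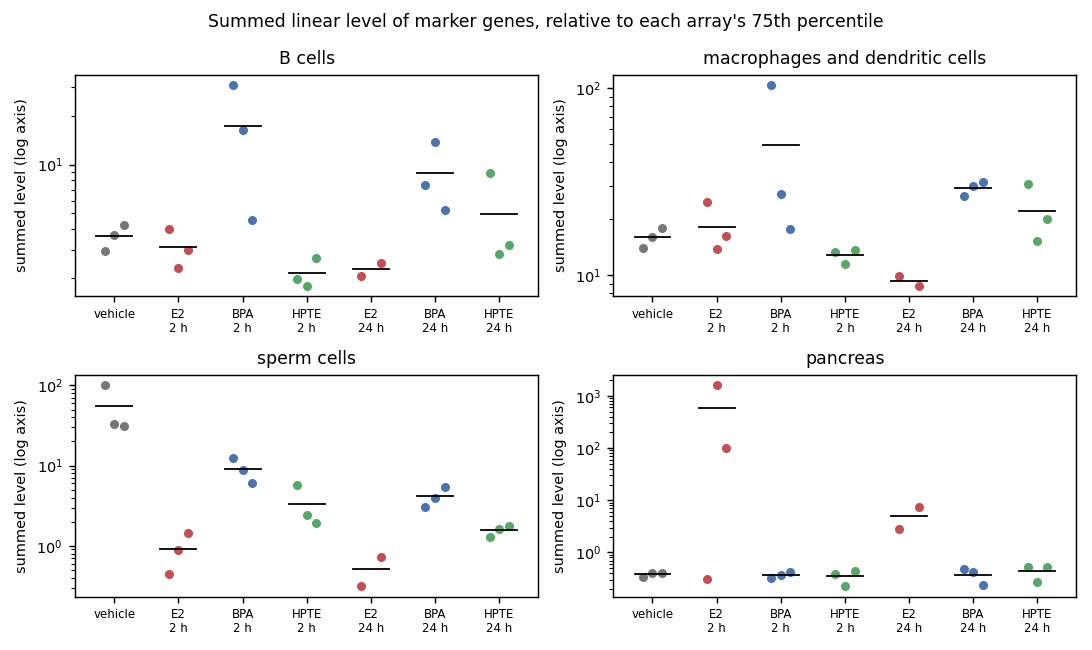
Summed level of marker transcripts of B cells, macrophages and dendritic cells, sperm cells and pancreas on each of the 20 arrays (points, log axis, relative to the 75th percentile of the array), by group, with group means as black lines. BPA 2 hr replicates 1 and 2 stand above the other arrays for B cells, and E2 2 hr replicates 2 and 3 reach 1621 and 101.6 for pancreas.

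Across the 7 groups, 51 of the 53 members tested differed in the moderated F test, against 81.3% of all probes, and Ifi44 and Irf4 did not. The median over the members lay below vehicle at 2 hr and above it at 24 hr, although 36 of 53 members were not called with E2 at 2 hr and 47 were not called with BPA at 24 hr, and 9 were called higher with at least 1 compound at 2 hr. The median difference from vehicle at 2 hr was -0.17 after E2, -0.25 after BPA and -0.31 after HPTE, with medians over all probes of -0.06, -0.10 and -0.09. At 24 hr it was 0.33, 0.23 and 0.23, with medians over all probes of -0.15, -0.03 and -0.06. The spread between replicate arrays gave such a median difference a standard deviation of 0.12, or 0.14 for E2 at 24 hr, so that the E2 median at 2 hr lay within it of the median over all probes. Under 4 other ways of scaling the arrays, each of these 6 medians kept its sign, except that HPTE at 24 hr gave -0.07 with spike-in scaling, which set the median of all probes there at -0.36.

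**Figure D2:**
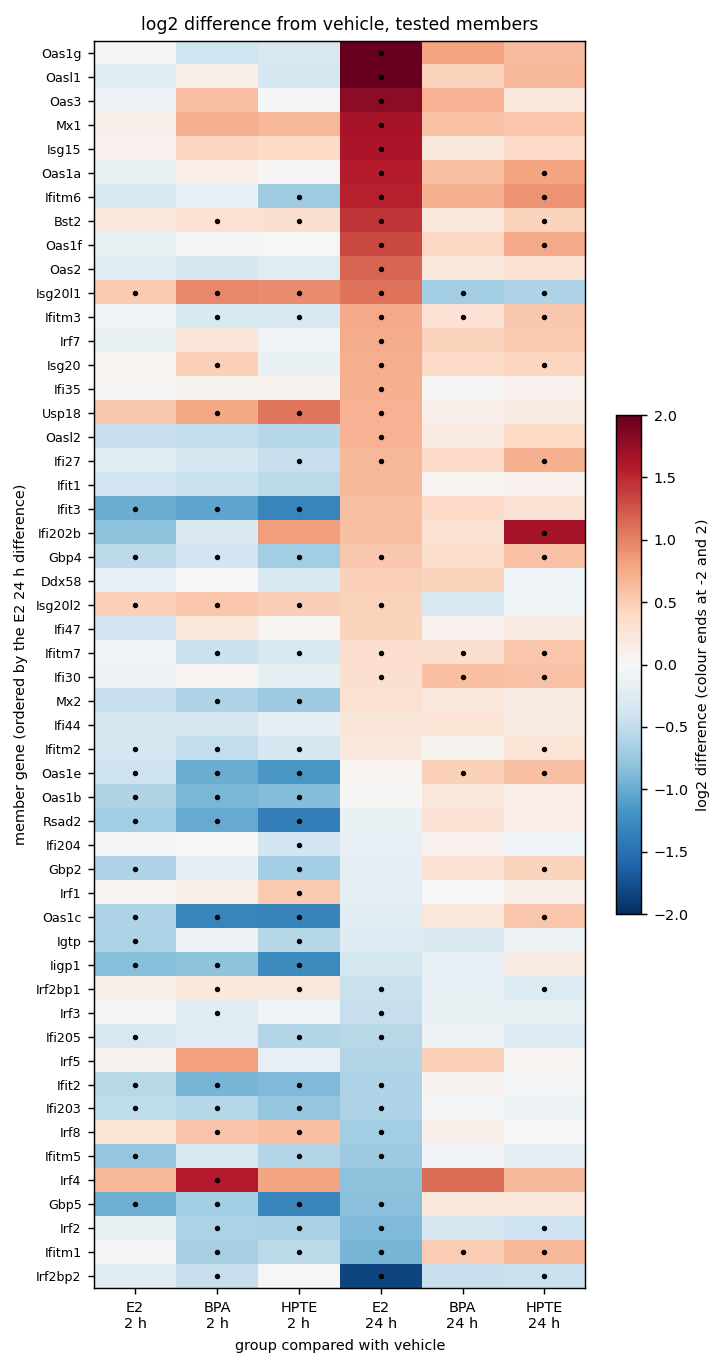
Fitted difference from vehicle (log2 scale, colour, which ends at -2 and 2) of the tested members (vertical axis, 1 of the 53 left out, ordered by the E2 24 hr difference) in the 6 treated groups (horizontal axis), with a dot where the difference was called. The 2 hr columns hold more lower than higher calls and the E2 24 hr column more higher ones, with Oasl1 2.27 above vehicle. The colours of Oas1g and Ifi202b stand for fitted values of probes not above background in vehicle, for which only a bound is given.

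At 2 hr the members that were called were mostly lower, and so were the probes called over the whole array. After E2, 15 members were lower and 2 higher, where 17% of all probes were lower and 11.1% higher, and unscaled arrays gave 0 higher and 16 lower, and spike-in scaling 0 and 1. After BPA, 19 were lower and 8 higher, where 30.2% of all probes were lower and 19.3% higher, and unscaled arrays gave 6 higher and 13 lower, and spike-in scaling 1 and 2. After HPTE, 24 were lower and 7 higher, where 28.2% of all probes were lower and 19.9% higher, and unscaled arrays gave 6 higher and 13 lower, and spike-in scaling 2 and 6. Called lower with all 3 treatments were 11 members. They were Ifit2 and Ifit3, Rsad2, Gbp4, Gbp5, Iigp1, Oas1b, Oas1c, Oas1e, Ifi203 and Ifitm2. Each comparison used the same vehicle arrays. The share of all probes lower with all 3 was not counted, so the 11 are a list and not a trait of the families. With slide as a block 5 members were lower with all 3 (Gbp5, Iigp1, Oas1c, Ifi203 and Ifitm2), the same 5 remained without E2 2 hr replicate 2, and with spike-in scaling there were 0. Without vehicle replicate 3 there were 7, of which 6 were among the 11. The promoters of 8 of these 11 were in the table, and 7 of their 11 promoters (63.6%) held the ISRE core. Over all member promoters the share was 39.2%, and the difference was not tested. No member was called in opposite directions by any pair of treatments at 2 hr.

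Ifit3, which binds foreign RNA together with Ifit1, was at 2.2, 1.45 and 1.95 in the vehicle uteri, at 1.07, 0.62 and 0.94 at 2 hr after E2, at 1.08, 0.05 and 1.29 after BPA and at 0.33, 0.78 and 0.54 after HPTE. Every treated array lay below every vehicle array. The differences were -0.99 ± 0.31 (adjusted p = 0.026), -1.06 ± 0.31 (0.0105) and -1.32 ± 0.31 (0.00252), which for HPTE is 0.401 times the vehicle level. A second Ifit3 probe was also called lower with all 3. By 24 hr Ifit3 was back at 2.65 and 2.29 after E2, 2.10, 2.37 and 2.29 after BPA and 2.13, 1.61 and 2.72 after HPTE, where no difference from vehicle was called.

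Rsad2 (viperin), an enzyme that makes a chain-terminating nucleotide against viruses, was at -0.37, -0.40 and -0.14 in vehicle, -0.96, -1.18 and -0.84 after E2, -1.19, -1.70 and -1.02 after BPA and -1.72, -1.92 and -1.39 after HPTE at 2 hr. All 9 treated arrays lay below the vehicle arrays. It fell by 1.37 ± 0.22 with HPTE (adjusted p = 0.000101), with differences of -1.0 ± 0.22 for BPA (adjusted p = 0.00148) and -0.69 ± 0.22 for E2 (adjusted p = 0.0279). Its other probes were called lower with BPA and HPTE but not with E2.

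Among the GTPases, Gbp5, which also activates the inflammasome, was at -0.95, -0.90 and -1.41 in vehicle, -1.79, -2.27 and -2.12 after E2, -1.56, -1.82 and -1.96 after BPA and -2.24, -2.33 and -2.61 after HPTE, with differences of -0.97 ± 0.16, -0.70 ± 0.16 and -1.31 ± 0.16 (adjusted p = 0.000321, 0.00211 and 9.23e-06). Iigp1 was at 2.81, 2.97 and 2.69 in vehicle, 2.08, 1.87 and 1.99 after E2, 2.17, 1.91 and 2.00 after BPA and 1.59, 1.67 and 1.38 after HPTE, with differences of -0.84, -0.80 and -1.28. The array's Gbp4, which RefSeq now calls Gbp3, was lower by smaller steps (-0.52, -0.39 and -0.70). Gbp2 went from 1.57, 1.96 and 1.54 in vehicle to 0.93, 1.05 and 1.25 with E2 and 0.89, 1.10 and 1.06 with HPTE, both called lower, and stayed at 1.60, 1.5 and 1.43 with BPA, where the difference of -0.18 was not called. Igtp was likewise called lower with E2 (-0.63) and HPTE (-0.57), with -0.11 for BPA, the E2 call being lost without vehicle replicate 2 or E2 replicate 2 and the HPTE call without vehicle replicate 2 or HPTE replicate 1 or 3. The GTPase Mx2 was at -0.14, -0.70 and -0.20 in vehicle, -0.88, -1.37 and -0.66 after BPA and -1.15, -1.12 and -0.94 after HPTE, called lower with both (-0.62 and -0.72), with a BPA call lost without vehicle replicate 1 or 3 or BPA replicate 2. The GTPases Mx1 and Ifi47 were not called at 2 hr, with differences for E2, BPA and HPTE of 0.11, 0.72 and 0.66 for Mx1 and of -0.38, 0.21 and 0.05 for Ifi47. Outside the families, the related GTPase Irgm1, on the array as Irgm, rose with BPA (0.59) and HPTE (0.82), and Irgm2, on the array as Iigp2, fell with E2 (-0.57) and HPTE (-0.56).

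Of the Oas family, Oas1b, Oas1c and Oas1e were called lower with all 3. Oas1c was at 0.01, 0.04 and 0.08 in vehicle, -0.44, -0.75 and -0.55 after E2, -1.25, -1.43 and -1.15 after BPA and -1.25, -1.31 and -1.32 after HPTE at 2 hr. The BPA and HPTE arrays lay in 1 narrow band, below the E2 arrays, which lay below the vehicle arrays. Its differences from vehicle were -0.62 ± 0.10 (adjusted p = 0.000295), -1.32 ± 0.10 (1.81e-07) and -1.33 ± 0.10 (1.35e-07). The differences for Oas1e were -0.99 with BPA and -1.16 with HPTE, and those for Oas1b were -0.91 and -0.86. The catalytically active Oas1a was not called at 2 hr, at 0.24, -0.10 and 0.45 after E2 and 0.30, 0.27 and 0.54 after HPTE, and neither were Oas2, Oas3, Oasl1 and Oasl2.

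**Figure D3:**
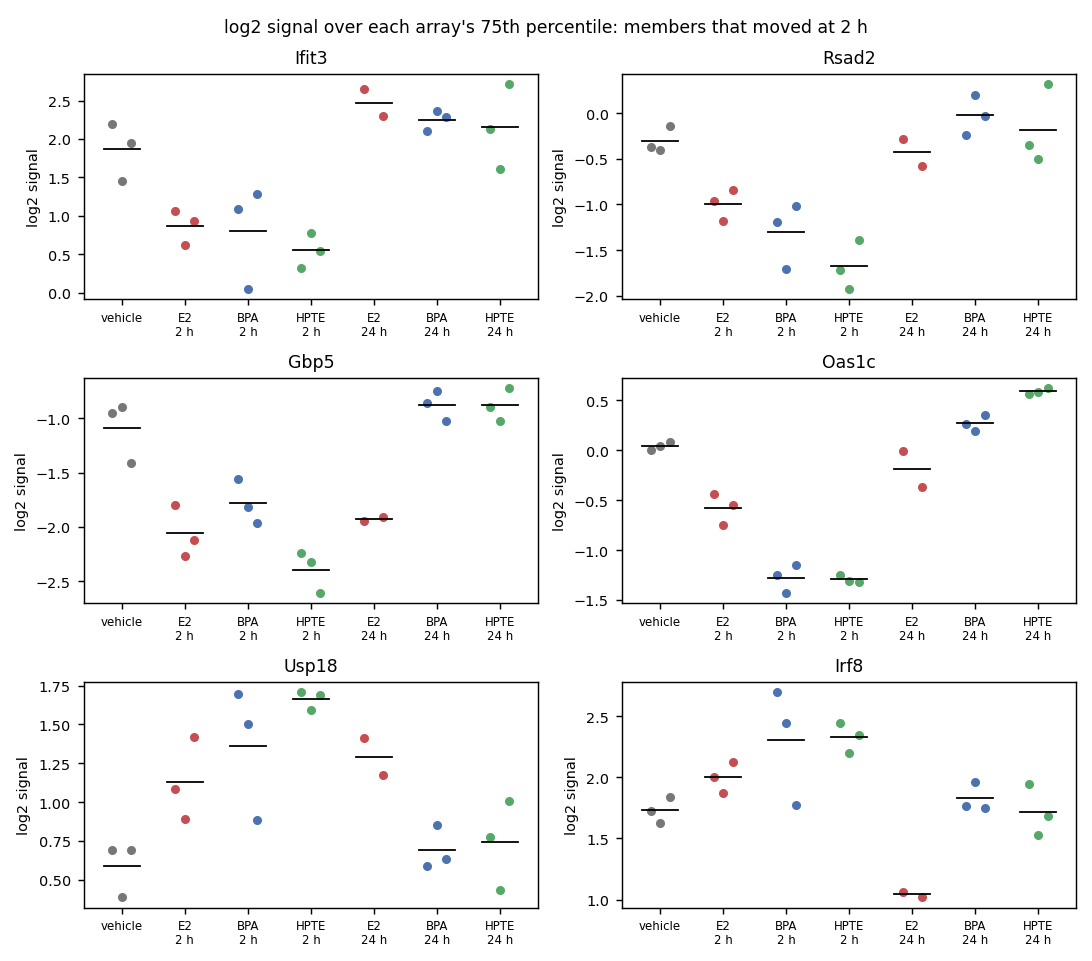
Level (log2 processed intensity relative to the 75th percentile of the array) of Ifit3, Rsad2, Gbp5, Oas1c, Usp18 and Irf8 on each array (points) in the 7 groups, with group means as black lines. Ifit3, Rsad2, Gbp5 and Oas1c are low in all 3 groups at 2 hr, while Usp18 is highest there after HPTE, 1.07 above vehicle.

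The 2 hr decreases depended on single arrays for E2 more than for HPTE. The Ifit3 call with E2 was lost without vehicle replicate 1 or 3 or E2 replicate 2 or 3, the Rsad2 call with E2 without vehicle replicate 1 or 3 or E2 replicate 1 or 2, and the Ifit3 call with BPA without BPA replicate 2, while those of both genes with HPTE and of Gbp5, Oas1c and Iigp1 with all 3 held whichever array was left out. Without both E2 2 hr arrays rich in pancreas transcripts 4 members were called in place of 17, and without both BPA 2 hr arrays rich in B cell transcripts 10 in place of 27, in each case with a single array left whose spread was taken from the other groups. Of 10 calls of named genes with E2 at 2 hr 4 were kept, those of Gbp2, Gbp5, Oas1c and Isg20l2, and of 18 with BPA 6 were kept, those of Gbp5, Iigp1, Ifitm1, Oas1c, Oas1e and Isg20l1, with the same sign for all 10 and all 18. The differences were then -0.80 (E2) and -0.58 (BPA) for Ifit3 and -0.66 and -0.71 for Rsad2, none of them called. The BPA array left, replicate 3, also lay nearer to vehicle than replicates 1 and 2 for some transcripts outside the families. Socs3 was at 4.09 against 5.56 and 5.71, and Hoxa10 at 2.74 against 1.07 and 1.28. Pgr, at -0.21 against -0.39 and -0.26, did not lie nearer. What set this array apart was not tested. The summed level of the 5 uterine stroma transcripts was lower at 2 hr. It was 65.95 to 72.4 in vehicle and 36.8 to 60.1 in the treated groups. The 5 did not move together: 1 was called higher and 1 lower with E2, 1 and 4 with BPA, and 1 and 3 with HPTE, Pgr being higher. Their part in the decreases was not tested.

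A smaller group rose at 2 hr. Usp18, the protease that removes Isg15 and dampens interferon receptor signalling, was at 0.69, 0.39 and 0.69 in vehicle, 1.08, 0.89 and 1.42 after E2, 1.70, 1.5 and 0.89 after BPA and 1.71, 1.60 and 1.69 after HPTE. The treated arrays at 2 hr all lay above the vehicle arrays. It rose with HPTE (1.07 ± 0.19, adjusted p = 0.000317, 2.1-fold) and BPA (0.77 ± 0.19, adjusted p = 0.0041), and the difference of 0.54 with E2 had an adjusted p of 0.0508. The BPA call was lost without both BPA arrays rich in B cell transcripts. Isg15 itself, at 0.46, 0.69 and 0.60 after HPTE against 0.40, -0.23 and 0.37 in vehicle, was not called at 2 hr. Bst2 rose a little with BPA (0.31) and HPTE (0.32), and Isg20 rose with BPA (0.47), a call lost without BPA replicate 2.

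Isg20l1 (Aen) rose with all 3 treatments at 2 hr, from 2.66, 2.56 and 2.61 in vehicle to 2.99, 3.24 and 3.17 with E2, 3.40, 3.70 and 3.62 with BPA and 3.47, 3.66 and 3.55 with HPTE. Its differences were 0.52 ± 0.11, 0.97 ± 0.11 and 0.95 ± 0.11 (adjusted p = 0.00249, 6.93e-06 and 6.21e-06). Its brightest probe lies on chromosome 4 of mm7 and its 2 other probes on chromosome 7, and all 3 were called higher with each treatment. Isg20l2 was called higher with all 3 (0.47, 0.55 and 0.49) on its brighter probe, but its second probe gave -1.16, -0.32 and -0.78, so the direction for this gene is unsettled.

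Among the Irf factors, Irf1, an early activator of interferon genes, rose with HPTE alone by the calls, at 4.50, 4.35 and 4.25 against 3.87, 3.91 and 3.75 in vehicle (0.52 ± 0.13, adjusted p = 0.00358). Irf8, a factor of myeloid and B cells, was at 1.73, 1.63 and 1.84 in vehicle, 2.70, 2.45 and 1.78 after BPA and 2.44, 2.2 and 2.35 after HPTE, with differences of 0.57 ± 0.18 (adjusted p = 0.0141) and 0.60 ± 0.18 (0.0112). Irf4, a factor of lymphocytes and plasma cells, was at -2.93, -2.32 and -4.66 after BPA against -5.20, -4.97 and -4.47 in vehicle (1.58 ± 0.60, adjusted p = 0.0402), and Irf5, known from macrophages, at 1.15, -0.50 and -0.73 against -0.97, -0.91 and -0.67 (not called). In BPA replicate 3, the array with the fewest B cell transcripts of its group, Irf4, Irf5 and Irf8 were each lowest of the 3 BPA arrays. Socs1 and Socs3, outside the families, were also lowest there, and what set this array apart was not tested. With that array alone the BPA differences were 0.22 for Irf4 and 0.043 for Irf8, neither called. Irf4 was 1 of the 2 members that missed the F test, and its call was lost without vehicle replicate 1 or 2 or BPA replicate 1 or 2, and the Irf8 call with BPA without vehicle replicate 2 or BPA replicate 1 or 2. With HPTE, the Irf8 call held whichever array was left out. In the HPTE 2 hr arrays B cell transcripts summed to 1.79 to 2.67 and macrophage transcripts to 11.4 to 13.7, below vehicle, with 0 called. The part of these cells in the BPA and HPTE results for Irf4, Irf5 and Irf8 was not tested.

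Irf2, a repressor of interferon genes, fell with BPA (-0.63) and HPTE (-0.65), from -0.03, -0.36 and -0.39 in vehicle to -0.84, -1.0 and -0.83 after BPA and -0.88, -0.69 and -1.15 after HPTE. Ifitm1, a membrane protein that blocks virus entry, fell with BPA (-0.66) and HPTE (-0.54), and was at -0.04 with E2. The 5 epithelium transcripts summed to 46.3 to 70.1 after BPA and 67.7 to 76.1 after HPTE at 2 hr, against 78.9 to 92.3 in vehicle and 91.1 to 97.4 after E2, and their part in this result was not tested.

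At 24 hr after E2 the picture turned. Of the 53 members, 22 were higher than vehicle and 11 lower, where 26.3% of all probes were higher and 37.6% lower, and spike-in scaling gave 12 higher and 3 lower. The 22 were Oas1a, Oas1f, Oas1g, Oas2, Oas3, Oasl1, Oasl2, Isg15, Usp18, Mx1, Gbp4, Bst2, Ifitm3, Ifitm6, Ifitm7, Ifi27, Ifi30, Ifi35, Irf7, Isg20, Isg20l1 and Isg20l2, and the 11 were Irf2, Irf3 and Irf8, the corepressors Irf2bp1 and Irf2bp2, Gbp5, Ifit2, Ifi203, Ifi205, Ifitm1 and Ifitm5. Of the 22, Oas1g was tested only because its probe was above background on both E2 24 hr arrays, so that its place among them follows from the filter, and the direction of Isg20l2 is unsettled, with -0.65 on its second probe.

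Oasl1, a catalytically inactive Oas relative known to restrain the translation of Irf7, had the largest difference among members above background in both groups. Its levels were -1.78, -2.19 and -1.66 in vehicle, 0.41 and 0.39 at 24 hr after E2, -1.71, -1.01 and -1.52 after BPA and -1.17, -1.64 and -0.85 after HPTE. Both E2 arrays stood apart from all others. The difference with E2 was 2.27 ± 0.28 (adjusted p = 4.65e-06), a 4.83-fold level, and ranged from 2.12 to 2.38 as single arrays were left out. With BPA it was 0.46 and with HPTE 0.66, neither called.

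The modifier Isg15 was at 0.40, -0.23 and 0.37 in vehicle and at 1.81 and 1.81 in both E2 24 hr arrays (1.63 ± 0.30, adjusted p = 0.00022, 3.09-fold), with 0.22, 0.75 and 0.27 after BPA and 0.74, 0.10 and 0.85 after HPTE. The array design placed its probe on chromosome 17 of mm7, whereas RefSeq places Isg15 on chromosome 4. Mx1, a GTPase that traps viral cores, was at -4.13, -4.67 and -3.79 in vehicle and -2.50 and -2.59 after E2 (1.65 ± 0.41, adjusted p = 0.00231). The laboratory strain carries a defective Mx1 gene, so this is a transcript level. Mx2 did not follow, at 0.15 and -0.24 after E2 against -0.14, -0.70 and -0.20 in vehicle (0.30, not called).

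Of 10 tested Oas members, 7 were called higher with E2 at 24 hr, Oas1g included, while Oas1b (0.02), Oas1c (-0.23) and Oas1e (0.06) were not called. Oas1a was at 2.04 and 1.78 after E2, 0.95, 1.06 and 0.83 after BPA and 1.12, 0.91 and 1.35 after HPTE, all above the highest vehicle array at 0.58. It rose with E2 (1.57 ± 0.22, adjusted p = 1.51e-05) and HPTE (0.78 ± 0.19, adjusted p = 0.00625), and with BPA the difference of 0.60 had an adjusted p of 0.0533. Oas1f rose with E2 (1.33) and HPTE (0.76). Oas2 (1.17), Oas3 (1.79) and Oasl2 (0.69) rose with E2. Oas2 went from 0.47, -0.70 and -0.05 in vehicle to 1.30 and 0.86, and Oasl2 from 2.58, 1.65 and 2.41 to 3.08 and 2.73. Vehicle replicate 2 was the lowest vehicle array for Oas2, Oasl2, Isg15, Mx1, Irf7, Ifit3 and Ifi44. The Oas2 call was lost without E2 replicate 2, and the Oasl2 call without it or without vehicle replicate 2. Oas1g passed the background test on both E2 arrays and on none of the vehicle arrays, at -6.22 and -6.39, so that it was at least 1.55-fold higher, counted against the lowest signal above background on each vehicle array. No other group had it above background on all of its arrays, so this is a description, with no test.

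Bst2 (tetherin), which holds budding virus at the cell surface, differed between groups by far more than between replicates. It was at 3.85, 3.77 and 3.70 in vehicle, 5.18 and 5.21 after E2, 4.0, 4.09 and 3.93 after BPA and 4.17, 4.25 and 4.26 after HPTE. It rose with E2 (1.42 ± 0.10, adjusted p = 1.58e-08, 2.68-fold) and with HPTE (0.45 ± 0.09). Ifitm3, at 4.71, 4.84 and 4.81 in vehicle, rose with all 3 treatments, to 5.51 and 5.59 with E2 (0.76), 5.12, 5.09 and 5.03 with BPA (0.30) and 5.37, 5.28 and 5.35 with HPTE (0.55). The BPA call was lost on leaving out any array of either group compared. Ifitm7 and Ifi30 (a lysosomal thiol reductase that opens proteins for antigen presentation) were the other members called higher with all 3. Ifi30 went from 0.77, 1.04 and 1.08 in vehicle to 1.42 and 1.16 with E2, 1.66, 1.41 and 1.64 with BPA and 1.68, 1.44 and 1.53 with HPTE, and its E2 call (0.33) was lost without vehicle replicate 1 or E2 replicate 2. Ifitm6 rose with E2 (1.55) and HPTE (0.90).

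**Figure D4:**
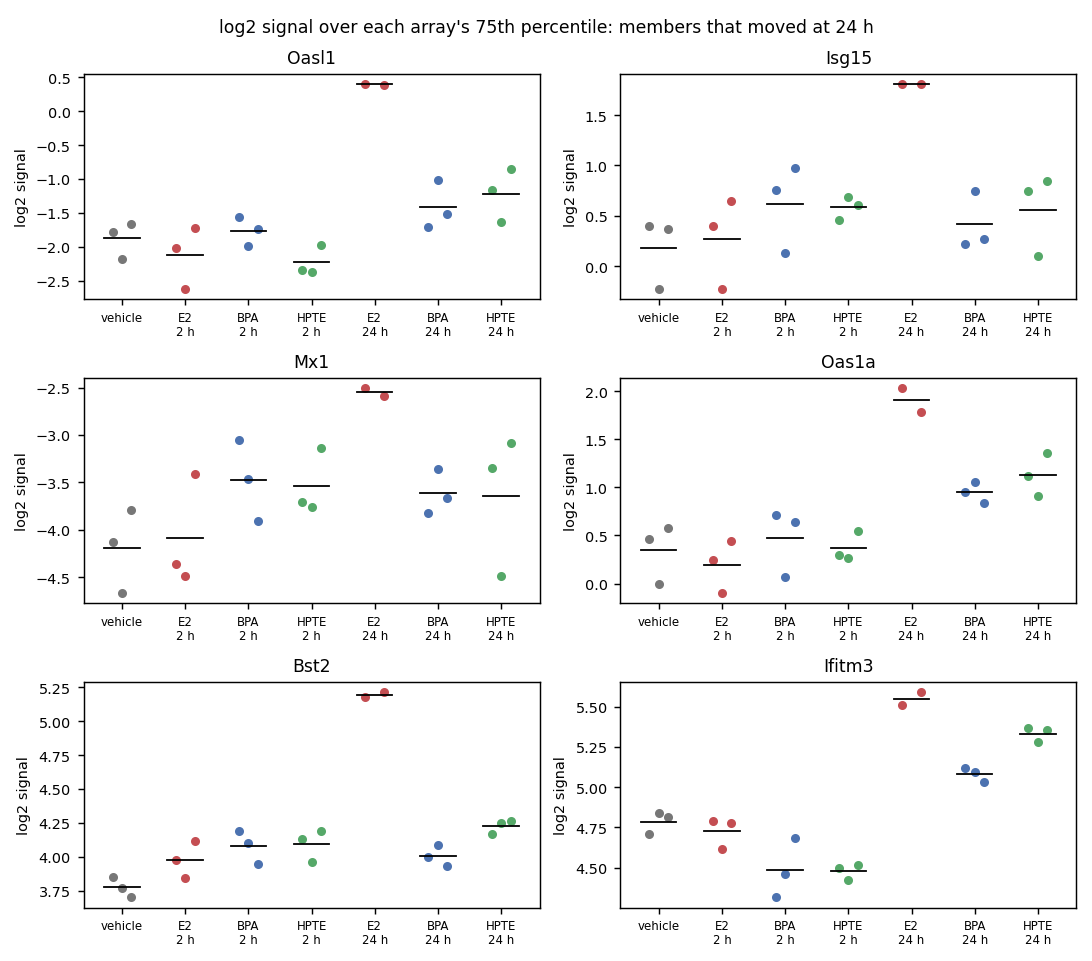
Level (log2 processed intensity relative to the 75th percentile of the array) of Oasl1, Isg15, Mx1, Oas1a, Bst2 and Ifitm3 on each array (points) in the 7 groups, with group means as black lines. The 2 arrays of E2 at 24 hr lie above every other array for all 6 genes, with Oasl1 at 0.41 and 0.39 against -1.66 or below in vehicle.

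Over all probes, 26.3% were called higher at 24 hr with E2, 5.09% with BPA and 14.9% with HPTE. The share of all probes higher with E2 alone was not counted. Of the members, 11 were called higher at 24 hr with E2 and with neither BPA nor HPTE. These were Oasl1, Oasl2, Oas1g, Oas2, Oas3, Isg15, Usp18, Mx1, Irf7, Ifi35 and Isg20l2 (Oas1g through the filter, Isg20l2 on its brighter probe only). Of the 8 promoters in the table for them, 3 (37.5%), that of Oas1g among them, held the ISRE core. This is near the 39.2% over all member promoters. For 8 of them, Oas1g and Isg20l2 included, the direct comparison with E2 was called with both BPA and HPTE, and for Oas3 with HPTE only. Over all probes, 24.6% were called lower than E2 with BPA and 21.6% with HPTE. These comparisons use the same E2 arrays that put the members on this list, so they add no separate evidence. Irf7, the factor that amplifies interferon production, rose from -0.87, -1.58 and -0.69 in vehicle to -0.17 and -0.44 with E2 (0.74), a call lost without vehicle replicate 2 or E2 replicate 2. Usp18, up early with BPA and HPTE, was at 1.41 and 1.17 after E2 at 24 hr (0.70), a call lost without E2 replicate 2, and at 0.59, 0.85 and 0.64 after BPA and 0.78, 0.44 and 1.01 after HPTE. Ifi27 (RefSeq Ifi27l2a, a mitochondrial protein) rose with E2 (0.67, lost without E2 replicate 2) and HPTE (0.71), and the nuclease Isg20 with E2 (0.73) and HPTE (0.43, lost without vehicle replicate 1 or 3 or HPTE replicate 1 or 3).

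The 11 members lower at 24 hr after E2 were led by Irf2bp2, at 1.54 and 1.59 after E2 against 3.55, 3.22 and 3.41 in vehicle (-1.83 ± 0.17, adjusted p = 2.09e-07), which is 0.28 times the vehicle level. Ifitm1 fell by 0.92 ± 0.12, to 3.34 and 3.20 from 4.06, 4.25 and 4.27. Irf2 fell by 0.88 ± 0.16, to -1.19 and -1.08, and Irf3, which responds first to foreign nucleic acid, by 0.47 ± 0.09. Irf8 was at 1.07 and 1.02 after E2 (-0.69), where its second probe gave -0.41 and was not called. Gbp5 stayed low with E2, at -1.95 and -1.91 (-0.84), whereas it was at -0.86, -0.75 and -1.03 after BPA and -0.89, -1.03 and -0.72 after HPTE. In the same E2 arrays the 3 general leukocyte transcripts summed to 3.9 and 4.77 against 6.64 to 7.47 in vehicle, the 6 macrophage transcripts to 9.9 and 8.74 against 13.9 to 17.8, and the 5 epithelium transcripts to 171.3 and 197.2 against 78.9 to 92.3. Their part in the E2 results at 24 hr was not tested.

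BPA at 24 hr changed few members, as it changed few probes. It raised 5 members and lowered 1 (Isg20l1), where 5.09% of all probes were higher and 8.03% lower. In the same BPA arrays macrophage transcripts summed to 26.5 to 31.5 and B cell transcripts to 5.26 to 13.7, above the vehicle arrays, and their part in the BPA results was not tested. HPTE raised 16 and lowered 4 (Isg20l1, Irf2, Irf2bp1 and Irf2bp2), where 14.9% of all probes were higher and 19.1% lower. In the HPTE arrays 5 of 5 epithelium transcripts and 4 of 4 smooth muscle transcripts were called higher than vehicle, with sums of 136 to 148.7 against 78.9 to 92.3 for epithelium and of 379.2 to 426 against 261.3 to 292.6 for smooth muscle. Macrophage transcripts summed to 30.7, 15.3 and 20.1 in HPTE replicates 1 to 3, against 13.9 to 17.8 in vehicle. B cell transcripts summed to 8.91, 2.82 and 3.21, against 2.95 to 4.23, with 0 called in either list. The part of all these transcripts in the HPTE results was not tested. The BPA split was 6 and 5 with normexp and quantile normalization, 5 and 2 with quantile normalization of the processed signal and 0 and 1 without scaling, while unscaled arrays gave 5 and 3 for HPTE, and spike-in scaling gave 0 and 1. The largest BPA increases were Ifi30 (0.61 ± 0.11), Ifitm1 (0.51 ± 0.11) and Oas1e (0.47 ± 0.13). Oas1e was at -2.61, -2.67 and -2.58 against -3.37, -2.99 and -2.92 in vehicle, and its call was lost without vehicle replicate 1 or BPA replicate 1 or 3. With HPTE, Oas1c rose above vehicle, at 0.57, 0.58 and 0.62 (0.55 ± 0.10, adjusted p = 0.000819), and so did Oas1e (0.61), Gbp4 (0.58) and Gbp2 (0.44, lost without vehicle replicate 1 or 3 or HPTE replicate 1 or 3). Ifi202b, a DNA-binding protein of the Ifi200 family, was above background on all 3 HPTE 24 hr arrays and on no vehicle array, at least 1.5-fold higher. It was tested, and counted among the 16, only because it was above background on all arrays of that group, which was so in no other group, so this is a description, with no test. HPTE lowered Irf2 (-0.41) and Irf2bp2 (-0.45), calls lost without vehicle replicate 1 or 2 or HPTE replicate 2 or 3 for Irf2 and without vehicle replicate 1 or 3 or HPTE replicate 2 or 3 for Irf2bp2. With slide as a block, the adjusted p of the HPTE increases became 0.0627 for Oas1a, 0.0671 for Ifitm6, 0.088 for Ifi27, 0.0539 for Oas1e and 0.071 for Isg20, above the threshold.

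At 24 hr, 2 members were called in opposite directions by E2 and the other compounds. Ifitm1 fell with E2 and rose with BPA and HPTE, to 4.79, 4.73 and 4.59 with BPA and 4.95, 4.70 and 4.90 with HPTE, and the 3 groups did not overlap with vehicle. Isg20l1 rose with E2 to 3.52 and 3.87 (1.08 ± 0.12) and fell with BPA to 1.87, 1.98 and 1.92 (-0.69 ± 0.11) and with HPTE to 1.83, 2.16 and 1.97 (-0.62 ± 0.11). Of its other probes, 1 gave the same calls and 1 was called only with E2, at 1.68.

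The change from 2 hr to 24 hr within a compound does not use the vehicle arrays. It was upward for most members called. With E2, 31 members were higher at 24 hr and 6 lower, where 25.9% of all probes were higher and 30.1% lower. With BPA, 23 were higher and 5 lower (28.2% and 20.2% of all probes), and with HPTE 28 were higher and 7 lower (29.5% and 24.6%). The median change was 0.56, 0.47 and 0.61, against -0.09, 0.06 and 0.05 over all probes. Marker transcripts moved over the same interval: 4, 5 and 5 of 5 epithelium transcripts were called higher at 24 hr with E2, BPA and HPTE, 4, 2 and 2 of 4 smooth muscle transcripts, and 1, 3 and 3 of 5 stroma transcripts, while 3 of 6 macrophage transcripts were lower with E2 and 3 of 6 higher with HPTE. Their part in the change was not tested. With HPTE, unscaled arrays gave 18 higher and 8 lower, and spike-in scaling gave 8 and 7, and with E2 it was 17 and 1 with spike-in scaling. Ifit3 rose by 1.60 ± 0.35 with E2, 1.44 ± 0.31 with BPA and 1.60 ± 0.31 with HPTE (adjusted p = 0.00106, 0.00125 and 0.00044), 3.03-fold with E2. Oas1c rose by 1.55 ± 0.10 with BPA and 1.88 ± 0.10 with HPTE, and by 0.39 ± 0.11 with E2. Usp18 went the other way with BPA (-0.67) and HPTE (-0.92) and was at 0.16 with E2 (not called). Without both BPA 2 hr arrays rich in B cell transcripts the BPA count was 18 in place of 28.

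BPA and HPTE were given at the same dose and times, and both carry a pair of hydroxyphenyl rings on 1 bridging carbon, which bears methyl groups in BPA and a trichloromethyl group in HPTE. Over the 3 pairs of compounds at 2 times, this pair had the fewest members called at both times. At 2 hr 0 of 53 members passed between HPTE and BPA (0.437% of all probes did), with 12 at an unadjusted p under 0.05, and at 24 hr 0 passed (4.08% of all probes), with 7 at an unadjusted p under 0.05. A missed threshold does not show that the compounds act alike. At 2 hr the difference, HPTE minus BPA, was -0.61 for Gbp5 (95% interval -0.95 to -0.27, adjusted p = 0.103), -0.61 for Isg20 (-0.92 to -0.31, adjusted p = 0.0751) and 0.41 for Irf1 (0.13 to 0.68). For Ifit3 it was -0.26 (-0.92 to 0.40) and for Oas1c -0.02 (-0.23 to 0.20), the second interval being the narrower. At 24 hr it was 0.20 for Oasl1 (-0.34 to 0.73), 0.15 for Isg15 (-0.42 to 0.72) and 0.15 for Ifitm1 (-0.09 to 0.39).

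E2, a steroid, was given at a dose far below that of the others, so these differences are between the treatments as given. At 2 hr, BPA was higher than E2 for 3 members and lower for 6 (7.92% and 11.1% of all probes), and HPTE was higher for 2 and lower for 7 (8.45% and 8.18%). Oas1c (-0.70 for BPA and -0.71 for HPTE), Oas1e (-0.58 and -0.76), Ifitm1 (-0.62 and -0.50) and Irf2 (-0.48 and -0.49) were among those called lower with both, and Isg20l1 higher with both. Without scaling between arrays, the splits were 8 higher and 1 lower for BPA, and 11 higher and 0 lower for HPTE. Without E2 2 hr replicate 1 the totals were 4 and 5, and without BPA 2 hr replicate 3 the BPA total was 16.

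At 24 hr the treatments parted more. BPA was higher than E2 for 17 members and lower for 14 (33.2% and 24.6% of all probes), and HPTE was higher for 13 and lower for 15 (27.3% and 21.6%). Without scaling the splits were 5 higher and 15 lower for BPA and 5 and 13 for HPTE, and with spike-in scaling 3 and 8 and 2 and 11. Among those lower than E2 were Oasl1 (-1.81 ± 0.28 for BPA and -1.61 ± 0.28 for HPTE), Isg15 (-1.40 ± 0.30 and -1.25 ± 0.30), Bst2 (-1.19 ± 0.10 and -0.97 ± 0.10), Mx1 (-1.07 and -1.09), Oas2 (-0.94 and -0.87), Ifi35 (-0.69 and -0.62) and Usp18 (-0.60 and -0.55). Oas3 was called lower with HPTE (-1.56) and not with BPA (-1.09), and Oasl2 and Irf7 with neither. Those higher than E2 with both included Ifitm1 (1.43 ± 0.12 and 1.58 ± 0.12), Irf2bp2 (1.37 and 1.39), Gbp5 (1.05 and 1.05) and Irf8. Without E2 24 hr replicate 3 the HPTE total fell from 28 to 14.

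**Figure D5:**
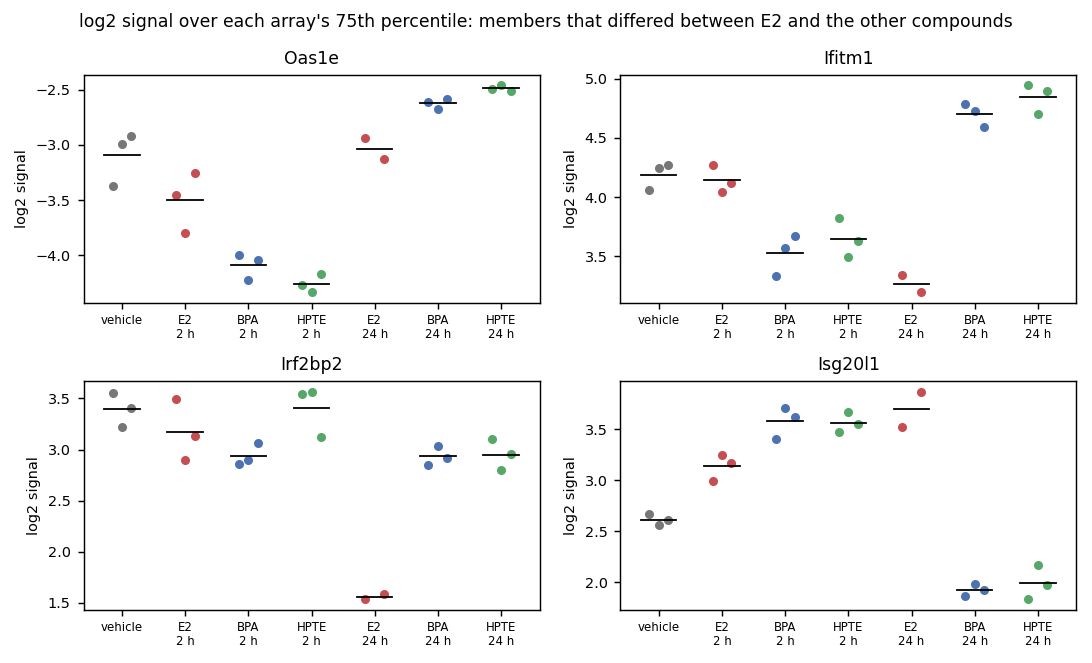
Level (log2 processed intensity relative to the 75th percentile of the array) of Oas1e, Ifitm1, Irf2bp2 and Isg20l1 on each array (points) in the 7 groups, with group means as black lines. Oas1e is lower after BPA and HPTE than after E2 at 2 hr, and at 24 hr Ifitm1 and Isg20l1 lie on opposite sides of vehicle for E2 and for the other compounds.

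No difference from vehicle was called on the brightest probe of 5 members. Ddx58 (RIG-I), the sensor of viral RNA, ranged from -0.64 to -0.11 in vehicle and from -0.90 to 0.15 in the treated groups. Of its 3 other probes, 1 was called higher at 24 hr with all 3 compounds (1.04, 0.84 and 0.65), 1 higher at 24 hr with E2 (1.28) and 1 lower at 2 hr with HPTE (-0.93). The probe with 1.28 was at -2.39 and -4.49 after E2 against -4.53, -4.79 and -4.83 in vehicle, so that 1 array carries most of it. The probes of Ddx58 thus differ in their calls, at different times, and on each of them the E2 24 hr mean lay above vehicle. Ifit1, with levels of 0.19, -0.49 and -0.07 in vehicle, had differences from -0.54 (HPTE at 2 hr) to 0.66 (E2 at 24 hr), and rose from 2 hr to 24 hr with E2 (1.05). Ifi44 ranged from -0.36 to 0.28 and the GTPase Ifi47 from -0.38 to 0.44, and Irf5 was the fifth. The second Ifi44 probe was called lower at 2 hr with E2 (-1.23), BPA (-1.19) and HPTE (-1.17). It was at -3.25, -3.47 and -3.28 after E2 against -1.97, -2.26 and -2.08 in vehicle. The means of the brightest probe at 2 hr were also lower, at -1.09, -1.09 and -0.94 against -0.74 in vehicle. The size and the call of the early Ifi44 difference thus depend on the probe, and its direction does not. Ifi204, a DNA sensor, was called on its brightest probe with HPTE at 2 hr (-0.38, lost without vehicle replicate 1).

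The genes around the families were read from fixed lists. For every list, the counts stand against the shares of all probes called. At 2 hr these shares were 11.1% higher and 17% lower with E2, 19.3% and 30.2% with BPA, and 19.9% and 28.2% with HPTE. At 24 hr they were 26.3% and 37.6% with E2, 5.09% and 8.03% with BPA, and 14.9% and 19.1% with HPTE. Some counts lie near or below these shares, and no list was tested as a set. Of 17 tested ligands, receptors, kinases, Stat proteins and their inhibitors, 4 were higher and 2 lower with E2 at 2 hr, 5 and 3 with BPA, and 6 and 7 with HPTE. At 24 hr the counts were 3 and 4 with E2, 1 and 0 with BPA, and 2 and 0 with HPTE. The interferon beta gene Ifnb1 was not tested, since it was well above background on only 1 array, E2 2 hr replicate 1, at -4.31. Interferon gamma (Ifng), a product of T and NK cells, was at -5.20 and -4.50 at 24 hr after E2. It was at -3.69, -2.62 and -3.74 in vehicle (-1.51, adjusted p = 0.00192). In the same comparison 4 of 6 T cell transcripts and 3 of 4 NK cell transcripts were called lower and 0 higher. The part of these cells in the Ifng result was not tested. Of 6 receptor chains, 2 were called lower at 2 hr with E2, 3 with BPA and 6 with HPTE, and 0 higher. Ifnar1 fell with BPA (-0.28) and HPTE (-0.33), Ifnar2 with all 3 (-0.37, -0.24 and -0.44) and the interferon lambda receptor Il28ra with all 3 (-0.64, -1.23 and -0.98). For the other chains, Ifngr1, Ifngr2 and Il10rb, the differences were -0.21, 0.16 and -0.17 with E2 and -0.16, -0.07 and -0.31 with BPA, not called, and -0.40, -0.62 and -0.62 with HPTE. Of the 4 inhibitors on the list, 3 were called higher at 2 hr with E2 and 4 with BPA and with HPTE. Socs1, which blocks Jak kinases at the interferon receptors, was at 1.02, 0.73 and 0.83 in vehicle and at 2 hr at 4.26, 3.92 and 4.20 after E2, 3.85, 4.20 and 1.84 after BPA and 4.03, 4.04 and 4.02 after HPTE, rising by 3.27, 2.43 and 3.17, and Socs3 rose by 2.90, 2.75 and 3.33. The phosphatase Ptpn2, which acts on Jak and Stat proteins, rose by 0.29, 0.62 and 0.62, and Pias1 was at 0.10 (not called), 0.30 and 0.39. The kinase Jak2 also rose with E2 (0.35) and HPTE (0.33), and Stat3 with BPA (0.53) and HPTE (0.52). Stat2 rose with E2 at 24 hr (0.54), as did Irf9, which the array lists under its older name Isgf3g, from 1.28, 1.11 and 1.27 in vehicle to 1.93 and 1.72 (0.61, adjusted p = 0.00111).

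Of 13 sensors and adaptors, 7 were higher and 0 lower at 24 hr with E2, among them the adaptor Myd88 (1.24) and Dhx58, on the array as D11Lgp2e, a partner of Ddx58 (0.90). With BPA 1 was higher and with HPTE 5, and 0 were lower with either. At 2 hr the counts were 2 higher and 1 lower with E2, 7 and 2 with BPA, and 5 and 2 with HPTE. Tlr3, the endosomal sensor of double-stranded RNA, fell with all 3 at 2 hr (-0.39, -0.54 and -0.68) and rose with E2 at 24 hr (0.61). Of 23 other antiviral genes, 7 were higher and 2 lower at 24 hr with E2, 2 and 0 with BPA, and 3 and 1 with HPTE, and at 2 hr 0 were higher and 4 lower with E2, 3 and 5 with BPA, and 3 and 6 with HPTE. Eif2ak2 (the kinase PKR) was at 0.65 and 0.55 against -0.65, -0.88 and -0.46 (1.26), Lgals3bp rose with E2, BPA and HPTE (1.20, 0.56 and 0.89), and Samd9l with E2 (1.04).

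Of 15 antigen presentation genes, 3 were higher and 7 lower at 24 hr with E2, 2 and 0 with BPA, and 8 and 0 with HPTE, and at 2 hr 0 were called with E2, 2 were higher with BPA, and 1 was higher and 1 lower with HPTE. Tap1, the peptide transporter of class I molecules, rose at 24 hr with E2 (0.59) and HPTE (0.60). The class II genes fell with E2, with H2-Eb1 at 1.32 and 1.27 against 2.63, 2.54 and 2.88 in vehicle (-1.39), the invariant chain Cd74 at -1.27 and their activator Ciita, on the array as C2ta, at -1.18. In the same E2 arrays macrophage transcripts summed to 9.9 and 8.74, with 2 of 6 called lower than vehicle. At 24 hr they summed to 26.5 to 31.5 after BPA, with 2 called higher. After HPTE they summed to 30.7, 15.3 and 20.1, with 0 called, against 13.9 to 17.8 in vehicle. The part of these transcripts in the antigen presentation results was not tested.

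The 20 arrays lay on 6 slides. On slide 1, the members' median difference from vehicle at 2 hr was -0.51 for E2, -0.18 for BPA and -0.48 for HPTE, and on slide 3 it was 0.07 for BPA and -0.18 for HPTE. On slide 5 the median at 24 hr was 0.25 for E2, 0.07 for BPA and 0.44 for HPTE, and on slide 3 it was 0.34 for BPA. From 2 hr to 24 hr it was 0.53 for E2 on slide 2 and 0.40 for BPA on slide 3, and no slide held HPTE at both times. On slide 3, Ifit3 differed by -0.37 with BPA and -0.90 with HPTE, and on slide 1 by -1.58 with E2, -0.91 with BPA and -1.42 with HPTE. On slide 5, Oasl1 differed by 2.04 with E2 at 24 hr, Isg15 by 1.44 and Irf2bp2 by -1.82. With slide as a block the count of members called with E2 at 2 hr was 7 in place of 17, and with HPTE at 24 hr 7 in place of 20. With arrays scaled on 8 spike-in probes, 25 of 92 calls of named genes against vehicle were kept, and without any scaling 63 were, in both cases with the same sign for all 92.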

How the data were processed

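Each uterus was measured on a one-color Agilent mouse array. The authors scanned the arrays and deposited, per the file headers, the processed signal intensity of each spot from Agilent Feature Extraction 9.5 (9.5.3.1 in the headers), already background-subtracted, with flags for outlier spots and for signal well above background. Array positions are those of build mm7. Here, outlier spots (46 to 134 per array) and control spots were left out, spots of 1 probe were averaged, and log2 intensities were set relative to the 75th percentile of each array (1320 to 2046). The scaling, the probe filter and every test were run again from the deposited intensities, with limma 3.58.1 in R 4.3.3. A probe was tested where it was well above background on all arrays of at least 1 group (32460 of 41174 probes, with 72.7% to 81.4% above background per array). A means model over 7 groups was fitted to all 20 arrays, because groups held 2 or 3, and p-values were adjusted by Benjamini-Hochberg within each of 15 contrasts. The precision is limited by the number of arrays. A difference involving a probe above background in only 1 group is given as a bound.

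The samples were grouped by their titles. In the labels of treated samples the entries for treatment and time stand under each other's heading, while title, source name and description give 1 and the same group for each sample. Nothing in the labels beyond 1 uterus per array tells how the animals were housed or treated together. The members, the gene lists and the tests were chosen with earlier results of these data known. The text names 33 genes fixed by role (Xaf1, not found, among them, and 1 not reported here, which counts of members include) and, in each contrast with vehicle, up to 3 of the largest called increases and decreases whose arrays did not overlap with vehicle. Other genes with values were named after their values were seen, those of the pathway lists included. Of the 56 members, 35 had 1 probe and 49 matched a RefSeq symbol by accession, and 12 had no promoter in the table used. The results were computed again after quantile normalization, either of the processed signal or of raw signal corrected by normexp (offset 50), with unscaled arrays, with arrays scaled on 8 of 10 spike-in probes, with no filter on dim probes, with slide or replicate number as a block, with the second probe of a member, fitting only the groups compared, and leaving out each array. Leaving out the arrays rich in pancreas or B cell transcripts together was chosen after seeing the data. The same replicate number did not pair arrays: over 57 pairs of arrays with 1 number, the correlation of deviations from group means had a median of -0.049 (-0.361 to 0.333), and 12 were over 0.1. For 25 pairs of arrays on 1 slide the median was 0.108 (-0.142 to 0.514, 13 over 0.1), against -0.033 for pairs on different slides, and the fit reported here has no term for slide. The fitting steps were tested on simulated data. A replicate 1 of E2 at 24 hr was not analysed here.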

Additional observations from a re-analysis of the deposited data

Results flagged for a closer look

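The effect of a compound differed between 2 hr and 24 hr, by the limma contrast of both times, for 37 members with E2, 28 with BPA and 35 with HPTE. Among these, some members were called on opposite sides of vehicle at the 2 times. With E2, Gbp4 was lower at 2 hr and higher at 24 hr, with a difference between times of 1.05. With BPA the difference between times was 1.17 for Ifitm1, 0.60 for Ifitm3, 0.75 for Ifitm7 and 1.46 for Oas1e, all low first and high later, and -1.65 for Isg20l1, which was high first. With HPTE the GTPases Gbp2 (1.11) and Gbp4 (1.29), the membrane proteins Ifitm1 (1.20), Ifitm2 (0.61), Ifitm3 (0.85), Ifitm6 (1.61) and Ifitm7 (0.87), Ifi27 (1.17), Oas1c (1.88) and Oas1e (1.77) went from low to high. Irf2bp1 (-0.49) and Isg20l1 (-1.57) went from high to low. Both times use the same vehicle arrays, so that their sides of vehicle are not independent.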

How the results depend on the processing

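Of the 92 calls of named genes against vehicle, 84 were kept with normexp and quantile normalization, 83 with quantile normalization, 63 without scaling, 25 with spike-in scaling, 89 without the filter on dim probes, 67 with slide as a block, 91 with the replicate block, 85 with the second probe and 74 when only the compared groups were fitted, and the sign held for all 92 in each of these except the second probe (88). The cause was not tested.

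With normexp and quantile normalization, BPA at 24 hr called 11 members in place of 6. Without scaling, 19 members were called for HPTE at 2 hr in place of 31, 1 for BPA at 24 hr, 8 for HPTE at 24 hr in place of 20, 18 for BPA from 2 hr to 24 hr in place of 28, 20 for BPA and 18 for HPTE against E2 at 24 hr in place of 31 and 28. With spike-in scaling, which rests on 8 probes, the members called against vehicle were 1 for E2, 3 for BPA and 8 for HPTE at 2 hr, and 15 for E2, 0 for BPA and 1 for HPTE at 24 hr. From 2 hr to 24 hr they were 18 for E2, 8 for BPA and 15 for HPTE, and against E2 they were 0 for BPA and 0 for HPTE at 2 hr and 11 and 13 at 24 hr. The F test called 24 in place of 51.

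With slide as a block, 7 were called for E2 at 2 hr in place of 17, 3 for BPA at 24 hr, 7 for HPTE at 24 hr, and 5 for BPA and 5 for HPTE against E2 at 2 hr in place of 9 and 9. With second probes, HPTE against BPA at 2 hr called 2. Fitting only the compared groups gave 3 for BPA at 24 hr, 0 for BPA against E2 at 2 hr and 5 for HPTE against E2 at 2 hr. Without E2 2 hr replicates 2 and 3, 4 members were called for E2 at 2 hr. Without BPA 2 hr replicates 1 and 2, 10 were called for BPA at 2 hr, 18 for BPA from 2 hr to 24 hr, 2 for BPA against E2 and 1 for HPTE against BPA at 2 hr. The lone array left was assumed to vary like the other groups.

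With replicate number as a block, counts of members called were 17, 28 and 32 at 2 hr and 33, 8 and 21 at 24 hr for E2, BPA and HPTE, and 50 in the F test, so that no count moved by over 1.5 times. The numbers do not pair the arrays.

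Leaving out 1 array at a time gave ranges of 10 to 18 for E2, 20 to 29 for BPA and 27 to 32 for HPTE at 2 hr, 26 to 37, 3 to 9 and 14 to 21 at 24 hr, 28 to 39, 24 to 31 and 32 to 37 between times, 4 to 16 for BPA and 5 to 11 for HPTE against E2 at 2 hr, 21 to 32 and 14 to 32 at 24 hr, 0 to 3 and 0 to 1 for HPTE against BPA at 2 hr and 24 hr, and 44 to 53 in the F test. Counts moved by over 1.5 times for E2 at 2 hr without E2 2 hr replicate 2 (10) or vehicle replicate 3 (11), for BPA at 24 hr without vehicle replicate 1 or BPA replicate 1 or 3 (3 each), for BPA against E2 at 2 hr without E2 replicate 1 (4), BPA replicate 1 or 2 (5) or BPA replicate 3 (16), for HPTE against E2 at 2 hr without E2 replicate 1 or HPTE replicate 1 or 2 (5), for HPTE against E2 at 24 hr without E2 replicate 3 (14), and for HPTE against BPA without BPA 2 hr replicate 3 (3 at 2 hr and 1 at 24 hr).

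Signs turned for Ifi204 without scaling (0.029, HPTE against E2 at 2 hr) and for Ifi204 (-0.26) and Igtp (-0.075) from 2 hr to 24 hr with HPTE under spike-in scaling. They turned on second probes for Isg20l2 (-1.16, -0.32 and -0.78 at 2 hr with E2, BPA and HPTE, and -0.65 at 24 hr with E2) and Ddx58 (0.24, HPTE against E2 at 24 hr), and for Irf8 from 2 hr to 24 hr with BPA (0.052) without BPA 2 hr replicates 1 and 2. Signal over background limits Gbp1, Oas1d and Oas1h, which could not be tested, and Oas1g and Ifi202b, for which only bounds are given.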
